A study of Mus musculus with 24 samples.

Results

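The miR-181 family was measured in germ cells of mice that lack 3 of the Argonaute genes. The strands described here are the 7 listed rows for miR-181a to miR-181d in a table of 1978 mature mouse miRNAs, namely mmu-miR-181a-5p, mmu-miR-181b-5p, mmu-miR-181c-5p, mmu-miR-181d-5p, mmu-miR-181a-1-3p, mmu-miR-181a-2-3p and mmu-miR-181c-3p. All 7 were in the table. Another 3 strands of the same hairpins (miR-181b-1-3p, miR-181b-2-3p and miR-181d-3p) were looked at as a second list.

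Small RNA was sequenced from 24 libraries, 4 for each of 3 genotypes in 2 cell types. The genotypes were Ago413+/+, Ago413+/- and Ago413-/-, where the mutant allele is a constitutive deletion on chromosome 4 that takes out Ago1 and parts of the neighbouring Ago3 and Ago4. It is carried by every cell of the animal, and Ago2 is left intact in all 3 genotypes. The line was made in 129 embryonic stem cells and crossed to C57BL/6J, and the mice were males of 10 to 15 weeks. The cell types were pachytene/diplotene spermatocytes (SP), which are in meiotic prophase, and round spermatids (RS), the haploid cells formed by meiosis. Both were enriched by sedimentation from testes of 2 to 5 pooled mice to a stated purity above 70%, so each library also holds RNA of other cells, and fewer cells of a type cannot be told apart from less RNA per cell. The Ago genes are not miRNAs, so the deletion itself could not be checked in these libraries.

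MicroRNAs are short RNAs cut as a pair of strands from a hairpin precursor, and 1 strand of the pair is loaded into an Argonaute protein, which then represses messenger RNAs that pair with the seed, bases 2 to 8 of the miRNA. The strand from the 5′ arm of the hairpin is called 5p and the strand from the 3′ arm 3p. The miR-181 family is conserved in vertebrates and is best known for its part in lymphocyte development and in vascular and neural cells, and all of its 5p strands share a seed.

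The mature sequences of the 4 5p strands are shown because their shared seed and near identity decide what the counts can tell apart. They are from RefSeq (GRCm38.p6), written 5′ to 3′ with the seed in capitals.

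mmu-miR-181a-5p: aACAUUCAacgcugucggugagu

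mmu-miR-181b-5p: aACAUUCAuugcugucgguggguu

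mmu-miR-181c-5p: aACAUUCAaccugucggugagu

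mmu-miR-181d-5p: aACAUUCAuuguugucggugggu

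No other miRNA of the table with a RefSeq sequence had this seed (1679 of 1978 had one). Over their shared 23 bases, miR-181b-5p and miR-181d-5p differ by C12U, counted from the 5′ end with the miR-181b-5p base first, and miR-181b-5p has 1 more base at its 3′ end. A read that is short or carries an error there can be counted to either, so the split between these strands is uncertain. miR-181a-5p and miR-181b-5p differ by A9U, C10U and A21G, and miR-181c-5p is 1 edit from miR-181a-5p.

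The 3p strands of the family are shown with their seeds, because the 3p strand of miR-181c gave the largest difference between genotypes.

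mmu-miR-181c-3p: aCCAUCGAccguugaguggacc

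mmu-miR-181a-1-3p: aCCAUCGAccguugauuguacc

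mmu-miR-181a-2-3p: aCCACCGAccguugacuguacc

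miR-181c-3p and miR-181a-1-3p share a seed and differ by G16U and G19U. In miR-181a-2-3p the seed differs from that of miR-181a-1-3p by U5C. The 3p strands have a different seed from the 5p strands and so would pair with other messengers.

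The strands come from 6 hairpins in 3 clusters (coordinates on GRCm38.p6). Mir181a-1 (chr1:137966455-137966541) and Mir181b-1 (chr1:137966639-137966718) lie 97 bases apart on the plus strand, in an exon of the long noncoding RNA A430106G13Rik and an intron of the transcript Gm4258. Mir181a-2 (chr2:38852735-38852810) and Mir181b-2 (chr2:38853830-38853918) lie 1019 bases apart on the plus strand, opposite an intron of Nr6a1, which codes for the nuclear receptor GCNF. Mir181d (chr8:84178716-84178787) and Mir181c (chr8:84178873-84178961) lie 85 bases apart on the minus strand. GENCODE M21 places this last pair in an intron of a long Nanos3 transcript of the same strand, whereas they lie upstream of the RefSeq Nanos3 gene, with 2163 bases between its 5′ end and Mir181d. Nanos3 codes for an RNA-binding protein needed by early germ cells. Mature miR-181a-5p and miR-181b-5p are each made from both the chromosome 1 and the chromosome 2 cluster, and the counts do not tell these sources apart. The strands of miR-181c and miR-181d have 1 source each, on chromosome 8. None of the 6 hairpins is on chromosome 4, where the deletion is.

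Library totals ran from 182904 to 1072637 counts, and the Ago413-/- SP libraries held 182904 to 369491. The family took 21123 counts over all libraries, which is 0.171% of the total, with a range of 0.0563% to 0.279% among libraries. Levels below are CPM (counts scaled to a common library size) adjusted by the trimmed mean of M-values (TMM), so they compare 1 strand across libraries. Between strands, levels depend also on how well each ligates in library preparation. A count of 3, taken as the smallest that counts as detected, equals between 2.80 CPM (deepest library) and 16.4 CPM (shallowest) before scaling.

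Within the family 1 strand dominated. miR-181a-5p had 13763 counts over the 24 libraries and ranked 93 among all 1978 miRNAs. miR-181b-5p had 3481 counts and miR-181d-5p had 3138, at ranks 155 and 162. miR-181c-5p and miR-181a-1-3p had 268 counts each, and miR-181c-3p had 191. miR-181a-2-3p had 14 counts, was at 0 in 15 libraries and did not reach 10 counts in any, so it was not tested. The second list was lower still, with 12 counts of miR-181b-1-3p, 2 of miR-181b-2-3p and 15 of miR-181d-3p, none of them tested. Thus 6 of the 7 strands passed the filter of 10 counts in at least 3 libraries.

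**Figure D1:**
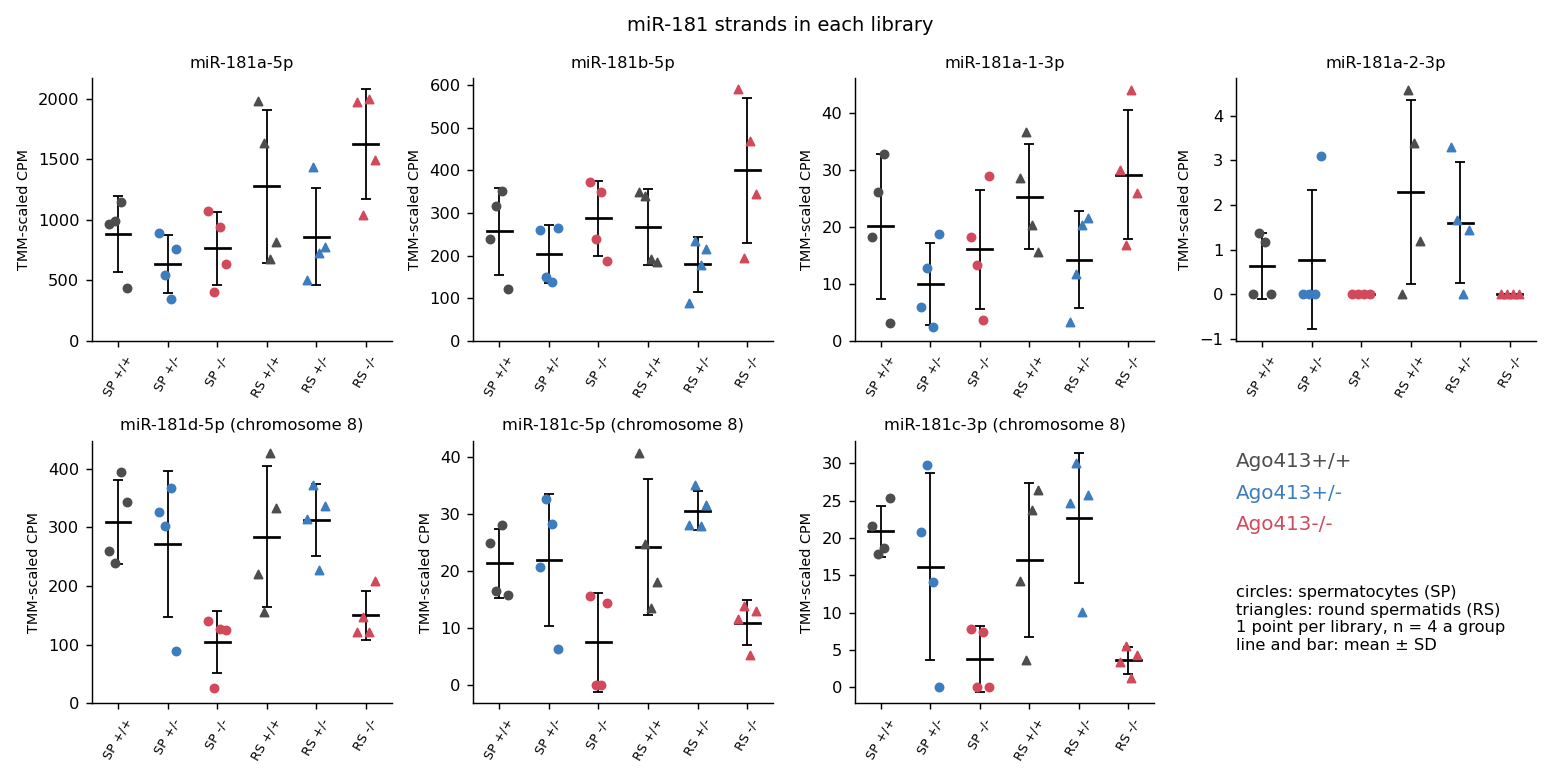
TMM-scaled CPM (y axis, linear, a different range in each panel) of the 7 strands in each library by cell type and genotype (x axis), with the mean and SD of 4 libraries. The upper row holds strands of the chromosome 1 and 2 clusters and the lower row those of chromosome 8, where the Ago413-/- libraries sit low in both cell types, for example at 1.29 to 5.57 CPM of miR-181c-3p in RS.

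The first comparison asked whether the miR-181 strands differed in Ago413-/- SP from control SP. The 3 chromosome 8 strands were lower in each Ago413-/- library than in each Ago413+/+ library, by log2 fold changes between -2.07 and -1.33, but none passed the test after adjustment. The strands of the other clusters overlapped between these groups. By edgeR's quasi-likelihood test, 0 of 6 strands had an adjusted p under 0.05 with an absolute log2 fold change of 1 or more, against 4.46% of the 404 miRNAs tested, and 2 of 6 had an unadjusted p under 0.05. Groups did not overlap for 3 of the 6 strands, against 19.8% of all miRNAs tested. For both miR-181c strands this rested on Ago413-/- counts of 0 to 6 a library, too few to settle the separation. The median log2 fold change was -0.87 over the 6 strands and -0.05 over all miRNAs.

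miR-181d-5p, the most abundant strand of the chromosome 8 pair, stood at 259, 240, 394 and 343 CPM in Ago413+/+ SP and at 141, 26.7, 126 and 125 CPM in Ago413-/- SP (replicates 1 to 4 of each). The highest mutant library was thus well under the lowest control library. Its log2 fold change was -1.55 (SE 0.49, edgeR adjusted p = 0.0828). DESeq2, run as an alternative, gave -1.59 with an adjusted p of 0.0161, so the call depended on the tool.

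miR-181c-3p was counted 13, 13, 16 and 8 times in the Ago413+/+ SP libraries, or 21.6, 17.8, 18.7 and 25.4 CPM. It was counted 3, 0, 2 and 0 times in Ago413-/- SP, or 7.81, 0, 7.41 and 0 CPM. No mutant library held more than 3 counts, and a count of 0 in these shallow libraries still allows levels up to the 3-count limit given above. The log2 fold change was -2.07 (SE 0.85, edgeR adjusted p = 0.134). Summed over libraries, 5 against 50 counts gave a 4.04-fold lower rate in Ago413-/- SP, with an exact 95% interval for counting error only of 1.62 to 13.

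miR-181c-5p, the partner strand from the same hairpin, was at 24.9, 16.4, 28.1 and 15.9 CPM in Ago413+/+ SP and at 15.6, 0, 0 and 14.4 CPM in Ago413-/- SP. The gap between the groups was narrow, 15.6 against 15.9 CPM. The mutant libraries held 6, 0, 0 and 3 counts. In replicate 2, the shallowest, 3 counts equal 16.4 CPM before scaling, which is above the lowest control library. Its count of 0 thus does not show that its level was below that of each control library. The log2 fold change was -1.33 (SE 0.74, edgeR adjusted p = 0.297).

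miR-181a-5p was at 966, 986, 1144 and 432 CPM in Ago413+/+ SP and at 1073, 407, 938 and 635 CPM in Ago413-/- SP, a log2 difference of -0.22 (SE 0.41, edgeR adjusted p = 0.746). miR-181b-5p averaged 257 ± 102 and 287 ± 87.8 CPM (SD, n = 4), a log2 difference of 0.15 (SE 0.39, edgeR adjusted p = 0.815). Its sign was negative under 3 of 18 alternatives. Among them were library totals without scaling factors (-0.06) and a fit with 1 library left out (-0.16). miR-181a-1-3p averaged 20.1 ± 12.7 and 16 ± 10.5 CPM, a log2 difference of -0.41 (SE 0.69). These differences were all within the spread between libraries.

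Against Ago413+/- SP, the same 3 strands had negative log2 fold changes in Ago413-/- SP, with 0 of 6 strands changed against 2.23% of the 404 miRNAs tested, and 2 of 6 at an unadjusted p under 0.05. No strand had groups free of overlap, against 10.6% of all miRNAs tested. For the 3 chromosome 8 strands the overlap came from 1 library, Ago413+/- SP replicate 4. It held 90.2 CPM of miR-181d-5p, against 326, 302 and 367 CPM in the other 3 Ago413+/- SP libraries. It held 6.22 CPM of miR-181c-5p and none of miR-181c-3p, so all 3 strands of the chromosome 8 pair were low in it. By column name this library is number 66, and the others of its group are 2, 18 and 24. With it, the edgeR log2 fold changes were -1.40 for miR-181d-5p (SE 0.49, adjusted p = 0.0991), -1.87 for miR-181c-3p (SE 0.87, adjusted p = 0.203) and -1.45 for miR-181c-5p (SE 0.75, adjusted p = 0.238). Without it, 2 of 6 strands were changed, among 57 of 399 miRNAs tested in all, against 9 of 404 with it. These were miR-181d-5p at -1.71 (edgeR adjusted p = 0.0201) and miR-181c-3p at -2.24 (adjusted p = 0.0445). The Ago413-/- SP libraries are numbers 54, 60, 84 and 90, each above every Ago413+/- SP number left in this fit. Genotype and library number could thus not be told apart there. Replicate 4 of Ago413+/- SP is also in the fit that gives the comparison with Ago413+/+. There miR-181d-5p passed without it at -1.52 (edgeR adjusted p = 0.0310), among 26 of 399 miRNAs in place of 18 of 404. The cause of this shift was not tested. This library was left out after its values were seen.

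In RS, the chromosome 8 strands again had negative log2 fold changes in Ago413-/-, and miR-181c-3p fell against both control genotypes. Against Ago413+/+ RS, 1 of 6 strands was changed, against 16.2% of the 426 miRNAs tested, and 3 of 6 had an unadjusted p under 0.05. None of the 6 had groups free of overlap, against 23.7% of all miRNAs tested. The share changed among the 6 strands was thus about that of all miRNAs. The median log2 fold change was -0.20 over the 6 strands and 0.13 over all miRNAs.

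miR-181c-3p was counted 7, 4, 7 and 22 times in Ago413+/+ RS (14.3, 3.66, 23.7 and 26.4 CPM) and 2, 2, 1 and 2 times in Ago413-/- RS (3.33, 5.57, 1.29 and 4.31 CPM). Each Ago413-/- count was below the 3 taken as detected, so these mutant levels lie under that limit. The groups overlapped through Ago413+/+ replicate 2. The log2 fold change was -2.09 (SE 0.68, edgeR adjusted p = 0.0328). Summed counts of 7 against 40 gave a 4.63-fold lower rate in Ago413-/- RS (exact 95% interval 2.05 to 12.2, counting error only). The call held in 3 of the 8 fits that left out 1 library each, where the adjusted p ran from 0.00350 to 0.112. It was lost without Ago413+/+ replicate 3 (0.0628) or 4 (0.0923), and without Ago413-/- replicate 1 (0.0686), 3 (0.112) or 4 (0.0525).

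miR-181c-5p was at 40.7, 24.7, 13.5 and 18 CPM in Ago413+/+ RS and at 11.7, 13.9, 5.17 and 12.9 CPM in Ago413-/- RS. The groups overlapped by a single pair of libraries, 13.5 against 13.9 CPM. The log2 fold change was -1.09 (SE 0.43, edgeR adjusted p = 0.0728).

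miR-181d-5p was at 220, 156, 427 and 334 CPM in Ago413+/+ RS and at 121, 148, 121 and 209 CPM in Ago413-/- RS. Replicates 1 and 2 of the control lay near the mutant libraries and replicates 3 and 4 well above them. The log2 fold change was -0.75 (SE 0.30, edgeR adjusted p = 0.0762), and without Ago413+/+ replicate 1 or 2 it passed at -1.07 (adjusted p = 0.0306) or -1.15 (adjusted p = 0.0120). Replicates 1 and 2 of both groups carry library numbers up to 60 and replicates 3 and 4 higher ones, and with a term for that split the log2 fold changes were -0.71 for miR-181d-5p (edgeR adjusted p = 0.0749) and -2.04 for miR-181c-3p (adjusted p = 0.0397).

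The comparison of Ago413-/- with Ago413+/- RS gave the most changed strands. Genotype largely went with library number here: Ago413+/- RS libraries were 1, 17, 23 and 65, and Ago413-/- RS libraries 53, 59, 83 and 89. A term for numbers above 60 adjusts for that split only, so genotype and library number could not be fully told apart. Of the 6 strands, 3 were changed: miR-181c-3p and miR-181c-5p fell and miR-181b-5p rose, against 12.4% of the 426 miRNAs tested that were changed in either direction. At an adjusted p under 0.05 with no limit on fold change, the count was 4 of 6, against 19% of all miRNAs, and the fourth was miR-181d-5p, also lower. Each Ago413-/- RS library was below each Ago413+/- RS library for all 3 chromosome 8 strands, against 23.2% of all miRNAs tested with groups free of overlap. The median log2 fold change over the 6 strands was 0.01, since 3 were above 0 and 3 below, and over all miRNAs it was 0.13. The Ago413-/- libraries are the same as in the comparison with Ago413+/+, so these comparisons are not independent.

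miR-181c-3p was counted 15, 18, 4 and 18 times in Ago413+/- RS (24.7, 30.1, 10.1 and 25.8 CPM). In Ago413-/- RS it had 2, 2, 1 and 2 counts, each below the 3 taken as detected. Its log2 fold change was -2.68 (SE 0.65, edgeR adjusted p = 0.0117). The summed counts, 7 against 55, gave a 7.52-fold lower rate (exact 95% interval 3.42 to 19.6, counting error only). The change was called in 7 of 8 fits that left out 1 library.

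miR-181c-5p was at 28.0, 35.1, 27.9 and 31.6 CPM in Ago413+/- RS and at 5.17 to 13.9 CPM in Ago413-/- RS. Its log2 fold change was -1.47 (SE 0.42, edgeR adjusted p = 0.0253), called in 7 of 8 fits with 1 library left out. The exception for both strands of the miR-181c hairpin was Ago413-/- replicate 3, without which the adjusted p was 0.0548 for the 3p strand and 0.0915 for the 5p strand, and no strand was changed.

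miR-181d-5p was at 313, 371, 228 and 336 CPM in Ago413+/- RS, all above the highest Ago413-/- RS library at 209 CPM. Its log2 fold change of -0.99 (SE 0.30, edgeR adjusted p = 0.0329) lay just inside the limit of 1 and was past it under 11 of 17 alternatives, at adjusted p-values under 0.05.

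miR-181b-5p was at 89.1, 234, 177 and 217 CPM in Ago413+/- RS and at 591, 195, 470 and 345 CPM in Ago413-/- RS. Of the 4 mutant libraries 3 were above all Ago413+/- libraries, and replicate 2, at 195 CPM, lay within the Ago413+/- range. The log2 fold change was 1.25 (SE 0.37, edgeR adjusted p = 0.0315). It was called in 3 of 8 fits with 1 library left out, where the adjusted p reached 0.130, and not when library totals were used without scaling factors (0.99, adjusted p = 0.0872). The 5 libraries whose removal ended the call were Ago413+/- replicates 1 (adjusted p = 0.0783), 3 (0.0606) and 4 (0.0667) and Ago413-/- replicates 1 (0.130) and 3 (0.0841).

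miR-181a-5p had a similar pattern, at 505, 1433, 722 and 772 CPM in Ago413+/- RS and 1971, 1037, 1998 and 1490.01 CPM in Ago413-/- RS, but did not pass (log2 fold change 1.01, SE 0.38, edgeR adjusted p = 0.0736). miR-181a-1-3p did not pass either, at 1.17 (SE 0.48, edgeR adjusted p = 0.10). Leaving out replicate 2 of Ago413+/- or of Ago413-/- let miR-181a-5p pass, at adjusted p-values of 0.0273 and 0.0494. Against Ago413+/+ RS the log2 differences were 0.48 (SE 0.38) for miR-181a-5p, 0.73 (SE 0.37) for miR-181b-5p and 0.36 (SE 0.45) for miR-181a-1-3p, none past the test.

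Some markers of other cells were higher in the same group as miR-181a-5p and miR-181b-5p. The pair of endothelial miR-126a strands summed to 1951 to 5858 CPM in Ago413-/- RS, against 511 to 1990 in Ago413+/+ RS and 858 to 1160 in Ago413+/- RS. The 5 leukocyte miRNAs summed to 487 to 645 CPM in Ago413-/- RS, against 214 to 419 and 419 to 589 in those controls. The 3 red cell miRNAs summed to 103 to 4813 CPM, against 49.2 to 501 and 179 to 1155. None of these markers was at 0 in all RS libraries of a group. Against Ago413+/- RS, 1 of 2 tested endothelial, 1 of 5 leukocyte and 0 of 2 red cell miRNAs were changed, both higher in Ago413-/-. Over all miRNAs tested, 12.4% were changed there in either direction. Against Ago413+/+ RS the counts were 1 of 2, 2 of 5 and 2 of 2, all higher, and 16.2% of all miRNAs were changed. The 2 miRNAs of peritubular and smooth muscle cells summed to 2031 to 3444 CPM in Ago413-/- RS, inside the range of Ago413+/+ RS (1060 to 8555) and of Ago413+/- RS (1316 to 5316), and neither was changed against either control. The part of these cells in the miR-181a-5p and miR-181b-5p values was not tested. The meiotic germ cell miRNAs (miR-34b-5p, miR-34c-5p and miR-449a-5p) had 0 of 3 changed in each of these comparisons.

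**Figure D2:**
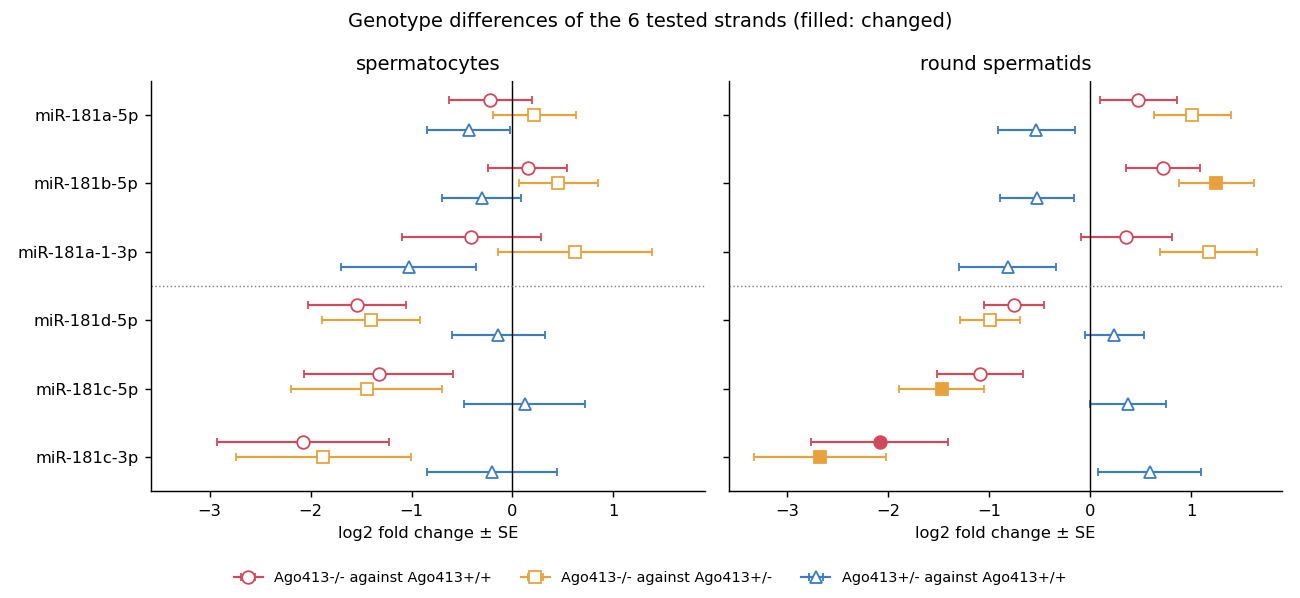
Log2 fold change and SE (x axis) of the 6 tested strands (y axis) for the 3 genotype comparisons in SP and RS from fits of 12 libraries, with filled symbols for changes past both thresholds. The strands under the dotted line come from chromosome 8 and had negative values in all 4 comparisons with Ago413-/-, from -2.68 to -0.75, while only miR-181b-5p is filled above it.

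No strand passed the test between Ago413+/- and Ago413+/+. In SP and in RS, 0 of 6 strands were changed against 0% of all miRNAs tested, 0 of 6 had an unadjusted p under 0.05 in either cell type, and DESeq2 also called 0. For the chromosome 8 strands the log2 differences were -0.20 (miR-181c-3p), 0.12 (miR-181c-5p) and -0.14 (miR-181d-5p) in SP, and 0.59, 0.38 and 0.24 in RS, with SEs of 0.29 to 0.65. For miR-181a-5p they were -0.43 in SP (SE 0.41) and -0.53 in RS (SE 0.38). For miR-181a-1-3p they were -1.03 in SP (SE 0.67) and -0.82 in RS (SE 0.48).

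The order of the mean levels of miR-181d-5p over the 6 groups was Ago413+/- RS (312 ± 61.0 CPM, SD, n = 4), Ago413+/+ SP (309 ± 72.3), Ago413+/+ RS (284 ± 120), Ago413+/- SP (272 ± 124), Ago413-/- RS (150 ± 41.4) and Ago413-/- SP (105 ± 52.5). The upper 4 groups lay within 1 SD of one another, and the lower 2 also overlapped each other. For miR-181c-3p the order was Ago413+/- RS (22.7 ± 8.70 CPM), Ago413+/+ SP (20.9 ± 3.42), Ago413+/+ RS (17 ± 10.3), Ago413+/- SP (16.2 ± 12.6), Ago413-/- SP (3.81 ± 4.40) and Ago413-/- RS (3.63 ± 1.81). For miR-181c-5p it ran from Ago413+/- RS (30.6 ± 3.44) through Ago413+/+ RS (24.2 ± 11.9), Ago413+/- SP (22 ± 11.6) and Ago413+/+ SP (21.3 ± 6.11) to Ago413-/- RS (10.9 ± 3.95) and Ago413-/- SP (7.52 ± 8.69). The mutant groups held the lowest places for each of these strands.

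The order was different for the abundant strand. miR-181a-5p was highest in Ago413-/- RS (1624 ± 456 CPM), followed by Ago413+/+ RS (1275 ± 631), Ago413+/+ SP (882 ± 310), Ago413+/- RS (858 ± 401), Ago413-/- SP (763 ± 300) and Ago413+/- SP (634 ± 241), with neighbours overlapping throughout. miR-181b-5p was also highest in Ago413-/- RS (400 ± 170 CPM) and lowest in Ago413+/- RS (179 ± 64.7).

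The change from SP to RS was then compared within each genotype, in a fit of all 24 libraries. No strand was changed. The count was 0 of 6 in Ago413+/+ and in Ago413+/-, against 0% of 450 miRNAs tested in both, and 0 of 6 in Ago413-/-, against 4.89%. At an unadjusted p under 0.05 the counts were 0, 0 and 1 of 6, and DESeq2 called none in any genotype. The 1 strand was miR-181a-5p in Ago413-/-, which was at 407 to 1073 CPM in SP and 1037 to 1998 CPM in RS (log2 fold change 1.08, SE 0.41, edgeR adjusted p = 0.0966). It passed when miRNAs of low count were kept in the test (1.16, adjusted p = 0.0473). The interaction of cell type and genotype was past an adjusted p of 0.05 for 0 of 6 strands and 0% of all miRNAs, for both Ago413-/- and Ago413+/-, with 0 of 6 at an unadjusted p under 0.05 and 0 by DESeq2. For the chromosome 8 strands in Ago413-/- it was 0.61 (SE 0.58) for miR-181d-5p, 0.12 (SE 0.82) for miR-181c-5p and -0.16 (SE 1.02) for miR-181c-3p, and none passed the test.

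The make-up of the family was then described as shares of the 5p counts, which do not depend on scaling between libraries. miR-181d-5p made up 15.4% to 37.6% of the 5p counts in Ago413+/+ SP, 8.03% to 41.9% in Ago413+/- SP and 3.96% to 13% in Ago413-/- SP. In RS it made up 7.25% to 32.6% in Ago413+/+, 17.9% to 33.5% in Ago413+/- and 4.51% to 10.6% in Ago413-/-. The Ago413-/- SP libraries lay below all Ago413+/+ SP libraries, whereas in RS the mutant overlapped with Ago413+/+ replicates 1 and 2, at 8.50% and 7.25%. Per 100 counts of its near-identical relative miR-181b-5p, miR-181d-5p had 145 ± 94.1 in Ago413+/+ SP, 156 ± 99.3 in Ago413+/- SP and 37.9 ± 22.7 in Ago413-/- SP (SD, n = 4). The values in RS were 128 ± 86.4, 198 ± 103 and 45.7 ± 26.8. These ratios were looked at after the fold changes were known and carry no test.

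**Figure D3:**
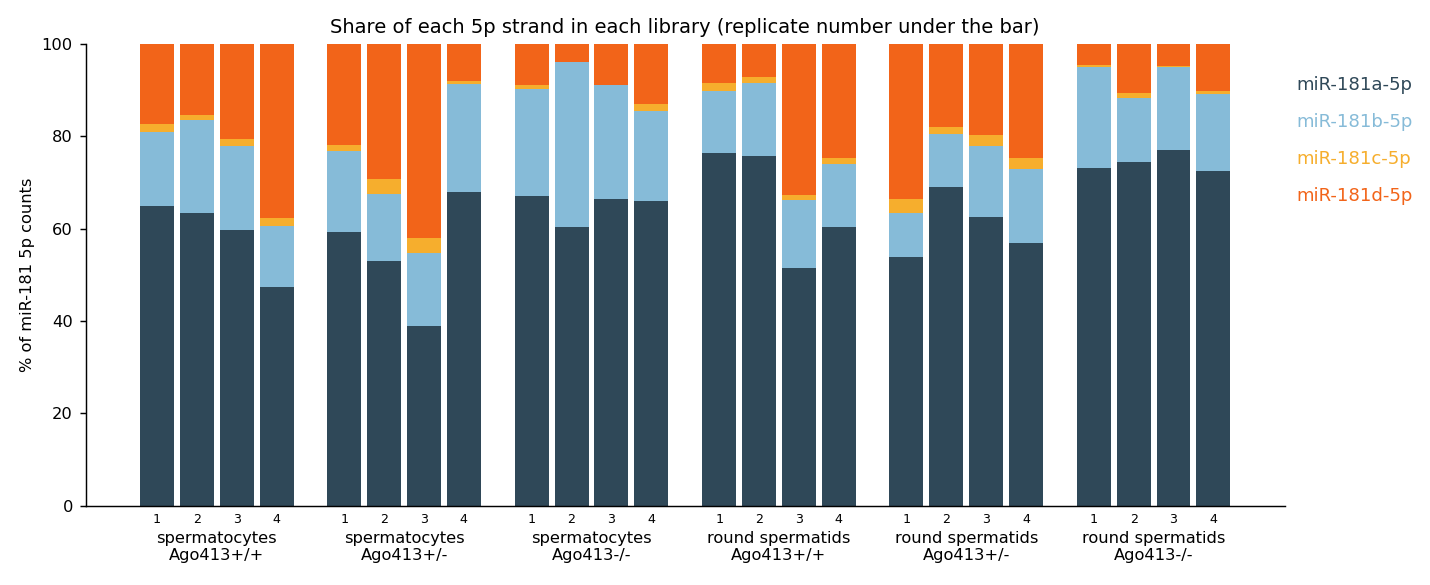
Percent of the summed 5p counts of the family (y axis, stacked to 100) on each of the 4 5p strands in each of 24 libraries (x axis, grouped by cell type and genotype). miR-181a-5p is the largest share in all libraries but Ago413+/- SP replicate 3, where it has 39.0% against 41.9% on miR-181d-5p, and the miR-181d-5p share is 3.96% to 13% in Ago413-/- SP.

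The share of the 5p counts on miR-181a-5p was tested over libraries by a two-sided exact permutation test, as were a pair of ratios of 3p to 5p strands. There were 27 tests (3 measures in 9 comparisons), and 4 against 4 libraries cannot give a p below 0.0286. miR-181a-5p held 74.2% ± 2.01 of the 5p counts in Ago413-/- RS, 60.6% ± 6.67 in Ago413+/- RS and 66% ± 12.2 in Ago413+/+ RS (SD, n = 4). In SP it held 64.9% ± 3.06 in Ago413-/-, 54.8% ± 12.2 in Ago413+/- and 58.8% ± 7.91 in Ago413+/+. Groups did not overlap in 2 of the 27 tests, Ago413-/- against Ago413+/- RS (13.6 percentage points higher) and RS against SP in Ago413-/- (9.29 points higher), each at the smallest exact p of 0.0286. No test passed after Benjamini-Hochberg adjustment, where the lowest value was 0.386. With so high a floor on each p and 27 tests, passing was hardly possible, so this shows nothing about whether the groups were alike.

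The strands from 1 hairpin were also set against each other. The log2 ratio of miR-181c-3p to miR-181c-5p, with 0.5 added to each count, was -0.01 ± 0.51 in Ago413+/+ SP and -0.34 ± 2.13 in Ago413-/- SP (SD, n = 4), where Ago413-/- SP replicate 2 had 0 counts of both strands and its ratio is set by the added 0.5 alone. It was -0.70 ± 1.61, -0.51 ± 0.57 and -1.42 ± 0.21 in Ago413+/+, Ago413+/- and Ago413-/- RS. The difference nearest to the threshold was that between Ago413-/- and Ago413+/- RS, at -0.91 (exact p = 0.0571, adjusted 0.514). For the miR-181a 3p strands against miR-181a-5p the group means ran from -5.97 to -5.41 on the log2 scale, and the exact p-values from 0.314 to 0.971.

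**Figure D4:**
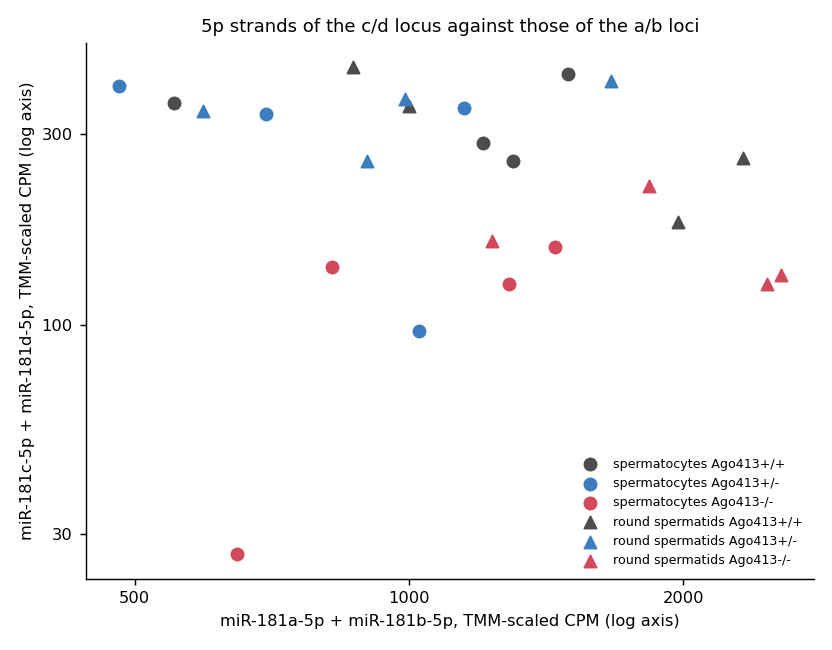
Summed TMM-scaled CPM of miR-181c-5p and miR-181d-5p (y axis, log scale) against that of miR-181a-5p and miR-181b-5p (x axis, log scale), 1 point per library, coloured by genotype with circles for SP and triangles for RS. The Ago413-/- libraries lie low on the y axis, at 26.7 to 222 CPM, and spread along the x axis, from 647 to 2561 CPM, with Ago413+/- SP replicate 4 (96.4 CPM) and Ago413+/+ RS replicate 2 also in that range of the y axis.

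Across the 24 libraries the chromosome 8 strands and the strands of the other clusters correlated more within each set than between the sets. On log2 CPM, Pearson's r was 0.82 between miR-181a-5p and miR-181b-5p. It was 0.87 between miR-181d-5p and miR-181c-3p and 0.76 between miR-181d-5p and miR-181c-5p. Between miR-181c-5p and miR-181c-3p, from the same hairpin, it was 0.64. The value was -0.39 between miR-181b-5p and miR-181d-5p, which differ in sequence by a single substitution over their shared length. miR-181c-3p and miR-181a-1-3p, which share a seed, gave -0.39. These values are over libraries that share groups and depth and are given as a description.

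By the same measure the miRNAs of other families most like miR-181a-5p were miR-203-3p (r = 0.90), miR-378c (0.89) and miR-6546-5p (0.87). Those most like miR-181c-5p were miR-883b-3p (0.86), miR-669a-3p (0.83) and miR-669o-3p (0.83). miR-203-3p is a skin and epithelial miRNA and was at 1172 to 7362 CPM in these libraries.

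The rarest strands gave little to compare. miR-181a-2-3p had 0 counts in all 8 Ago413-/- libraries, and 2 and 7 counts over the 4 Ago413+/+ libraries of SP and RS, where 5 of the 7 were in 1 library. miR-181d-3p was at 0 in the 4 Ago413-/- SP libraries and at 3.33 CPM or less in all others.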

How the data were processed

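The small RNA libraries were made from 100 ng of total RNA. Per the labels and methods, the authors trimmed reads with Trim Galore, mapped and quantified them with miRDeep2 against mouse miRBase miRNAs, and deposited raw counts per mature miRNA, which are not normalized and hold no molecular identifiers. The 24 count columns were matched to samples by description. How reads shared by near-identical strands were split is not given in the sources used here. The strands and lists were chosen with earlier results of these data known.

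A miRNA entered a fit when 3 or more of its libraries held 10 or more counts, and was tested with edgeR 4.0.16 (TMM, quasi-likelihood F test) in R 4.3.3, in fits of 12 libraries per cell type for genotype and of 24 libraries for cell type and the interaction. Benjamini-Hochberg adjustment was over all miRNAs tested, and "changed" means adjusted p below 0.05 with a log2 fold change of 1 or more in either direction. The fits were run on simulated counts with known changes and the same spread for every miRNA, a check of the code and not of the low-count strands. Levels are TMM CPM from the 24-library fit. Ratios used exact permutation tests (scipy 1.17.1). Replicates are numbered libraries of pooled mice. No replicate pair agreed within sampling noise (chi-square over degrees of freedom 22.8 to 260 in 36 pairs). Alternatives were DESeq2 1.42.0, other scalings and filters, a term for the number in the library's column name (above 60 or not), a replicate block, the compared groups alone and leaving out each library. Named strands were the 7 members, 3 further hairpin strands, the 3 miRNAs most like miR-181a-5p and miR-181c-5p, and marker lists.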

Additional observations from a re-analysis of the deposited data

Results flagged for a closer look

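In 54 groups of 4 libraries (6 tested strands and 3 ratios in 6 groups), 3 held a library far from the other three by Dixon's test, and chance gives about 2.7. In Ago413-/- SP, replicate 2 held 26.7 CPM of miR-181d-5p, against 125 to 141 CPM in the others, from 4 counts in the library with the lowest total. In the same library miR-181a-5p took 60.4% of the 5p counts, against 66% to 67% in the others. In Ago413+/- RS, replicate 3 had a log2 ratio of miR-181c-3p to miR-181c-5p of -1.35, against -0.28 to -0.18 in the others, from 4 and 11 counts.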

How the results depend on the processing

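The 3 chromosome 8 strands had negative log2 fold changes in all 4 comparisons with Ago413-/- under every alternative that kept them in the test. Within a cell type both comparisons share their Ago413-/- libraries, so these signs are not independent. The numbers of strands changed moved more. For Ago413-/- against Ago413+/+ in SP, where none was changed, some alternatives gave 1. These were DESeq2 (61 of 404 miRNAs changed in all), no filter on low counts (55 of 1059) and leaving out Ago413+/- replicate 4 (26 of 399). The last was chosen after seeing the data. For Ago413-/- against Ago413+/- in SP, DESeq2 gave 1 (57 of 404 miRNAs changed in all). Leaving out 1 library gave 0 to 2, with 2 (57 of 399 miRNAs) without Ago413+/- replicate 4. For Ago413-/- against Ago413+/+ in RS, some alternatives gave 0 in place of 1. These were requiring 10 counts in every library (42 of 265 miRNAs changed in all), fitting the compared groups alone (64 of 410) and the replicate block (62 of 426). The first and second of these removed miR-181c-3p from the test. Leaving out 1 library gave 0 to 2. For Ago413-/- against Ago413+/- in RS, a term for library number gave 5 (59 of 426 miRNAs changed in all). Leaving out 1 library gave 0 to 4, with 0 (31 of 421 miRNAs) without Ago413-/- replicate 3. For RS against SP in Ago413-/-, no filter gave 1 (43 of 1224 miRNAs changed in all).

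Deviations of same-numbered libraries correlated above 0.1 in 0 to 3 of 4 pairs per comparison, never in all 4. Both fractions can come from 1 cell suspension, but no label states that an SP and an RS library share one. Library numbers of the same genotype and replicate were mostly consecutive, as for Ago413-/- replicate 1 (SP 54, RS 53). They were not for Ago413+/+ replicate 2 (SP 36, RS 41). A shared source was thus not settled, and the main fits of RS against SP and of the interaction took the libraries as independent. Under the replicate block the adjusted p was 0.0681 for miR-181c-3p (Ago413-/- against Ago413+/+ RS) and 0.0754 for miR-181b-5p (against Ago413+/-), while miR-181d-5p passed (0.0489), and RS against SP kept 0 of 6 strands changed in each genotype; own-number libraries correlated best in at most 3 of 4.

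Library totals without scaling moved the median over all miRNAs on the log2 scale from 0.13 to -0.09 (Ago413-/- against Ago413+/+ RS), from 0.13 to -0.10 (against Ago413+/- RS) and from -0.05 to -0.24 (against Ago413+/+ SP). Over all miRNAs, DESeq2 and no filter changed 61 and 55 in place of 18 (Ago413-/- against Ago413+/+ SP), 57 and 40 in place of 9 (against Ago413+/- SP), 37 and 43 in place of 22 (RS against SP in Ago413-/-), and both 8 in place of 0 (Ago413+/- against Ago413+/+ RS). Requiring 10 counts in every library changed 42 in place of 69 and 35 in place of 53 (Ago413-/- RS against each control). The compared groups alone changed 4 in place of 9 and 2 in place of 22. Without a filter, the other comparisons went from 0 to between 4 and 8. Counts were low for miR-181c-5p (0 to 27 a library), miR-181c-3p (0 to 22), miR-181a-1-3p (1 to 40) and miR-181a-2-3p (0 to 5).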
